A study of Chromochloris zofingiensis with 12 samples.

Results

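CYP97A1 (Cz13g16110), CYP97A2 (Cz09g14130) and CYP97C (Cz09g07100) are the cytochrome P450 carotenoid hydroxylases that the study lists for the unicellular green alga *Chromochloris zofingiensis*. They were taken by gene ID and not by a cut on their values, but with earlier results of these data known. They are 3 of the 15274 genes in the expression table, none of them at 0 in any library. The study grew strain CCAP 211/14 (labelled WT) in photobioreactors run continuously, diluted at 0.5 per day, and varied the nitrate fed to the cells and the light on the reactor surface. RNA was taken 4 h into the light period and read as stranded polyA libraries, 3 in each of 4 conditions. The control, LL 10 mM, had 10 mM nitrate and a maximum irradiance of 300 µE m-2 s-1. HL 10 mM had the same nitrate and 1000 µE m-2 s-1, LL 1 mM had 1 mM nitrate at the lower light, and HL 1 mM had 1 mM nitrate at the higher light. The sources give samples from 3 consecutive days analysed by triplicate without stating which of these the libraries are, so the p-values rest on a spread between samples that may be technical. Nor do they give the number of reactors per condition. If the libraries of a condition came from 1 running culture, condition cannot be told apart from reactor, and the p-values leave out the spread between cultures.

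Lutein is a xanthophyll of the light-harvesting complexes and is made from α-carotene, which carries one β-ring and one ε-ring. In plants, enzymes of the CYP97A family hydroxylate the β-ring and CYP97C hydroxylates the ε-ring, so that both activities act in turn on the same molecule. Lycopene ε-cyclase (LCYe) makes the ε-ring that sets this branch apart, and CHYb, a non-heme hydroxylase of another enzyme family, acts on the β-rings of β-carotene. The study also counts CHYb among the hydroxylases that turn α-carotene into lutein. The roles given here to the algal genes otherwise rest on the names the study gives them.

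The values were read as FPKM, that is, fragments per kilobase of a transcript relative to all fragments mapped in that library, although the sources do not name the unit. They allow levels of different genes to be set side by side per length, but they carry no read counts, so the depth and counting error behind each value are unknown. They describe whole cultures, in which fewer cells transcribing a gene and less of its RNA per cell cannot be told apart. The deposited libraries were not on one scale. Their median FPKM was 12.6 to 14.7 at 10 mM nitrate and 17.8 to 20.8 at 1 mM, and the 100 most abundant genes held 37.5 to 46.7% of the FPKM at 10 mM against 27.6 to 31.7% at 1 mM. For the tests, the 14916 genes above 0 in some library were taken as log2(FPKM + 1), quantile-normalized and fitted with limma, and a gene counted as changed where its p, adjusted over all of them by Benjamini-Hochberg, was under 0.05. Differences between conditions are on that log2 scale unless stated. With 3 libraries against 3 an exact permutation test cannot go below 0.1, so limma, which borrows variance from other genes, carries these comparisons.

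All 3 hydroxylase genes were well above the middle of the transcriptome. The mean log2 level over the 12 libraries exceeded that of 86.1% of the genes for CYP97A1, 90.1% for CYP97A2 and 90.1% for CYP97C. Their libraries lay close together within a condition. The SD between libraries of one condition, on the log2 scale, was 0.0688 for CYP97A1, 0.0363 for CYP97A2 and 0.0367 for CYP97C. Among genes of a similar level the median SD was 0.0981, 0.0936 and 0.0936, and 20.3%, 0.967% and 1.23% of those genes had a smaller SD than CYP97A1, CYP97A2 and CYP97C, respectively. LCYe, at 0.0857, lay nearer the middle of its neighbours (40.1% had a smaller SD) and CHYb, at 0.216, was among the most variable (94.5%).

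On the deposited scale CYP97A1, the first of the β-ring hydroxylases, was lowest in LL 10 mM and highest in HL 10 mM. Its deposited FPKM was 54.0, 48.3 and 48.1 in the 3 LL 10 mM libraries and 76.6, 76.1 and 78.0 in HL 10 mM. Under LL 1 mM it was 72.5, 65.1 and 63.5, and under HL 1 mM 72.3, 67.8 and 68.4. The HL 10 mM libraries lay above the other 9, the LL 10 mM libraries below the other 9, and both 1 mM conditions overlapped. After median scaling the control was no longer lowest, at a mean of 61.1 FPKM beside 59.0 at LL 1 mM and 54.9 at HL 1 mM. Replicate 1 of LL 1 mM was the highest library of its condition for this gene and for the other 2 hydroxylase genes.

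After quantile normalization, CYP97A1 was 57.6 ± 3.09 FPKM at LL 10 mM, 77.5 ± 0.686 at HL 10 mM, 63.5 ± 4.85 at LL 1 mM and 62.4 ± 1.85 at HL 1 mM (SD, n = 3). In this order of levels, HL 10 mM stood above the next condition, LL 1 mM (log2 difference 0.29, limma adjusted p = 0.00514), a comparison in which 51.8% of all genes passed the test in either direction. The 3 remaining conditions did not separate from their neighbours. LL 1 mM and HL 1 mM differed by -0.02 (95% CI -0.17 to 0.13, adjusted p = 0.913), and HL 1 mM and LL 10 mM by 0.12 (95% CI -0.03 to 0.27, adjusted p = 0.174).

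CYP97A2, the other gene of the β-ring family, was highest in LL 10 mM and stepped down through every other condition. It read 108, 113 and 110.5 FPKM in LL 10 mM and 94.0, 97.6 and 97.6 in HL 10 mM. It then read 89.8, 85.3 and 85.2 in LL 1 mM and 76.1, 74.8 and 75.5 in HL 1 mM. No library of one condition overlapped with those of another. Normalization widened the steps without changing their order, from 124 ± 3.86 FPKM at LL 10 mM over 96.4 ± 2.77 at HL 10 mM and 82.8 ± 2.14 at LL 1 mM to 68.1 ± 0.738 at HL 1 mM (SD, n = 3). Each neighbour in this order passed the test, with HL 10 mM above LL 1 mM by 0.22 (limma adjusted p = 0.00687) and HL 1 mM below LL 1 mM by the value given further on.

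CYP97C, the ε-ring hydroxylase, had a single high condition on the deposited scale. Its deposited FPKM was 83.3, 81.8 and 84.9 in LL 10 mM and 112, 108 and 106 in HL 10 mM. Under LL 1 mM it was 88.0, 86.0 and 81.5, and under HL 1 mM 89.6, 90.9 and 86.9. The HL 10 mM libraries lay above all others, and LL 1 mM overlapped with both LL 10 mM and HL 1 mM. After normalization the gene was at 94.95 ± 0.90 at LL 10 mM, 108 ± 3.11 at HL 10 mM, 81.1 ± 2.85 at LL 1 mM and 81.1 ± 1.76 at HL 1 mM (SD, n = 3), which placed both 1 mM conditions below the control. HL 10 mM stood above its neighbour LL 10 mM by 0.19 (limma adjusted p = 0.047), a call taken up further on. It stood above LL 1 mM by 0.41 (limma adjusted p = 0.000134), and the 1 mM conditions were level.

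**Figure D1:**
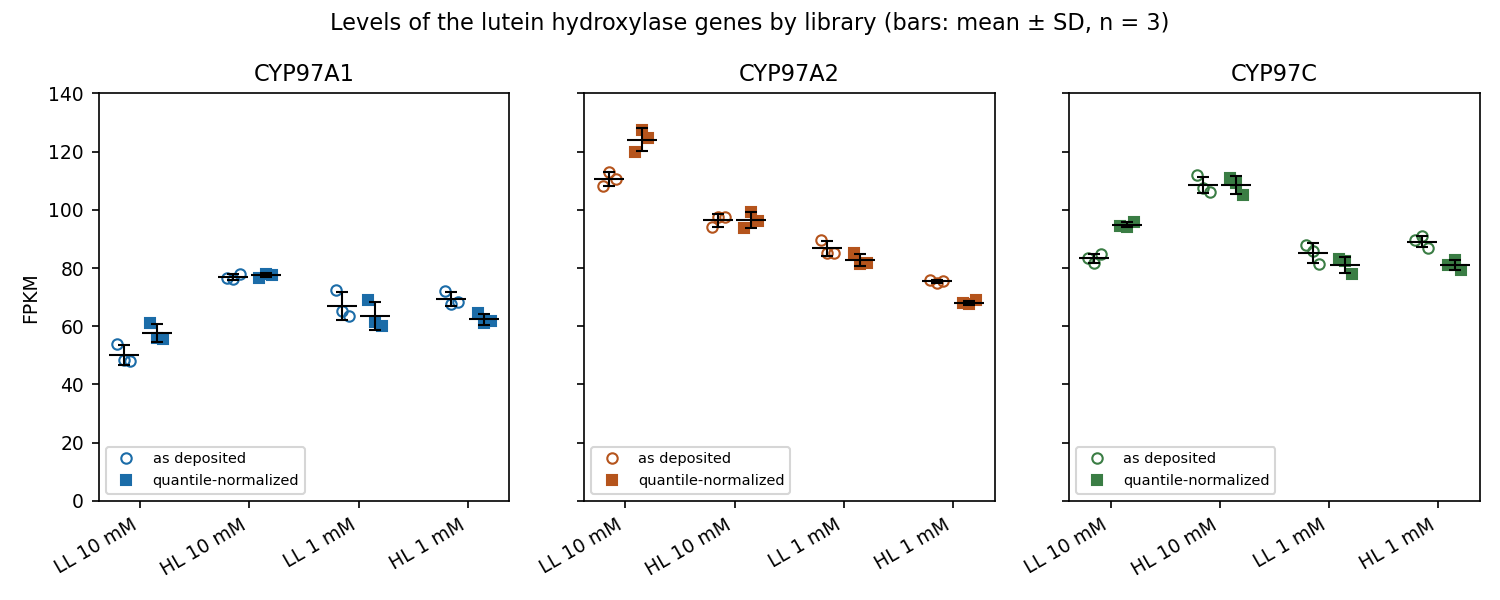
FPKM (vertical axis) of the 3 hydroxylase genes in each library of the 4 conditions (horizontal axis). Open circles are deposited values, filled squares are quantile-normalized values, and bars give the mean ± SD of 3 libraries. CYP97A2 steps down from 124 to 68.1 normalized FPKM, while CYP97A1 and CYP97C are highest in HL 10 mM, at 77.5 and 108.

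High light at 10 mM nitrate moved the 3 genes in opposite directions. CYP97A1 was 1.34-fold higher than in LL 10 mM (log2 difference 0.42 ± 0.07 SE, 95% CI 0.27 to 0.57, limma adjusted p = 0.00278) and CYP97C was higher by 0.19 (95% CI 0.07 to 0.31, adjusted p = 0.047). CYP97A2 was lower, at -0.36 ± 0.05 (95% CI -0.48 to -0.24, adjusted p = 0.00187). Of all genes tested, 5.81% were higher and 5.67% lower in this comparison, so that 2 of 3 members higher and 1 of 3 lower stood against a small background. In rank, 95.2% of the genes had a lower value than CYP97A1 and 8.83% a lower value than CYP97A2. The directions held without normalization and after scaling to one median (CYP97A1 0.61 and 0.56, CYP97C 0.38 and 0.33, CYP97A2 -0.20 and -0.25), but CYP97A2 lost its call after median scaling (limma adjusted p = 0.0538). The CYP97C call was kept in 1 of 12 fits that left out a library, the one without LL 1 mM replicate 3. Without any other library its difference was 0.17 to 0.21 (limma adjusted p = 0.0527 to 0.134), and with only the 6 libraries compared it was 0.20 (limma adjusted p = 0.135).

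Low nitrate at low light lowered CYP97A2 and CYP97C. Against LL 10 mM, CYP97A2 changed by -0.58 in LL 1 mM (95% CI -0.70 to -0.46, limma adjusted p = 1.61e-05) and CYP97C by -0.23 (95% CI -0.35 to -0.11, adjusted p = 0.00622). CYP97A1 was at 0.14 (95% CI -0.01 to 0.29, adjusted p = 0.123), with overlapping normalized libraries. The count of 2 members lower and none higher compares with 25.2% of all genes lower and 21.3% higher. The scale decides part of this result. Without normalization the median of all genes moved by 0.31 in this comparison, and the share of higher genes among those called went from 45.8% to 89.0%. On the deposited scale CYP97A2 was still lower, at -0.35 (limma adjusted p = 0.000352), whereas CYP97C stood at 0.03 with overlapping libraries and CYP97A1 at 0.41, higher in each of 3 libraries, a call gained on this scale (limma adjusted p = 0.000658). Relative to the shifted median these were -0.66 for CYP97A2, -0.28 for CYP97C and 0.10 for CYP97A1, and after median scaling CYP97A1 turned to -0.05.

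In HL 1 mM, where both factors changed, CYP97A2 reached its lowest level. In normalized FPKM + 1 it was 0.553 of the LL 10 mM level, a log2 difference of -0.86 (95% CI -0.98 to -0.74, limma adjusted p = 5.28e-07). Only 6.21% of the genes had a lower value. CYP97C differed by -0.22 (95% CI -0.34 to -0.10, adjusted p = 0.00495) and CYP97A1 by 0.12, which did not pass the test. In this comparison 28.8% of all genes were lower and 25.0% higher, with 2 of 3 members lower. CYP97A2 was lower under each of the 3 scalings (-0.55 as deposited, -1.17 after median scaling). CYP97C was not, since its 3 deposited HL 1 mM libraries lay above the 3 of LL 10 mM by 0.10 (limma adjusted p = 0.164) while the median of all genes moved by 0.41 on that scale. CYP97A1 gained a call as deposited, at 0.47 (limma adjusted p = 0.000189), 0.05 above that median. After median scaling it stood at -0.15 and was not called (limma adjusted p = 0.116). These 3 comparisons share the LL 10 mM libraries.

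Within high light, all 3 genes were lower at 1 mM than at 10 mM nitrate. The difference was -0.31 for CYP97A1 (95% CI -0.46 to -0.16, limma adjusted p = 0.00277), -0.49 for CYP97A2 (95% CI -0.61 to -0.37, adjusted p = 2.82e-05) and -0.41 for CYP97C (95% CI -0.53 to -0.29, adjusted p = 9.17e-05). In none of the 3 genes did the libraries of HL 1 mM and HL 10 mM overlap, on either scale. A large part of the transcriptome passed this test as well, with 33.2% of all genes lower and 24.7% higher. As deposited, the median of all genes moved by 0.33, CYP97A2 and CYP97C remained lower at -0.35 and -0.28, and CYP97A1 at -0.14 lost its call (limma adjusted p = 0.103).

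Within low nitrate, light moved CYP97A2. HL 1 mM differed from LL 1 mM by -0.28 for this gene (95% CI -0.40 to -0.16, limma adjusted p = 0.0157), with no overlap of libraries. CYP97A1 at -0.02 (95% CI -0.17 to 0.13) and CYP97C at 0.00 (95% CI -0.12 to 0.12) did not pass. The CYP97A1 interval lay below that of its light difference at 10 mM nitrate (0.27 to 0.57). That of CYP97C overlapped with its interval at 10 mM (0.07 to 0.31). Few genes passed this comparison, 2.82% higher and 2.41% lower. With the replicate number as a block, 1308 genes passed in place of 781, and CYP97A2 kept its call (limma adjusted p = 0.0185). The CYP97A2 call was lost without normalization (-0.20, limma adjusted p = 0.061), with only the 6 libraries compared (-0.27, limma adjusted p = 0.0728), and in 4 of 12 fits that left out a library, those without replicate 1 or 2 of LL 1 mM and without replicate 1 or 2 of HL 1 mM. In these 4 fits the difference was -0.29 to -0.26 (limma adjusted p = 0.0518 to 0.0712).

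**Figure D2:**
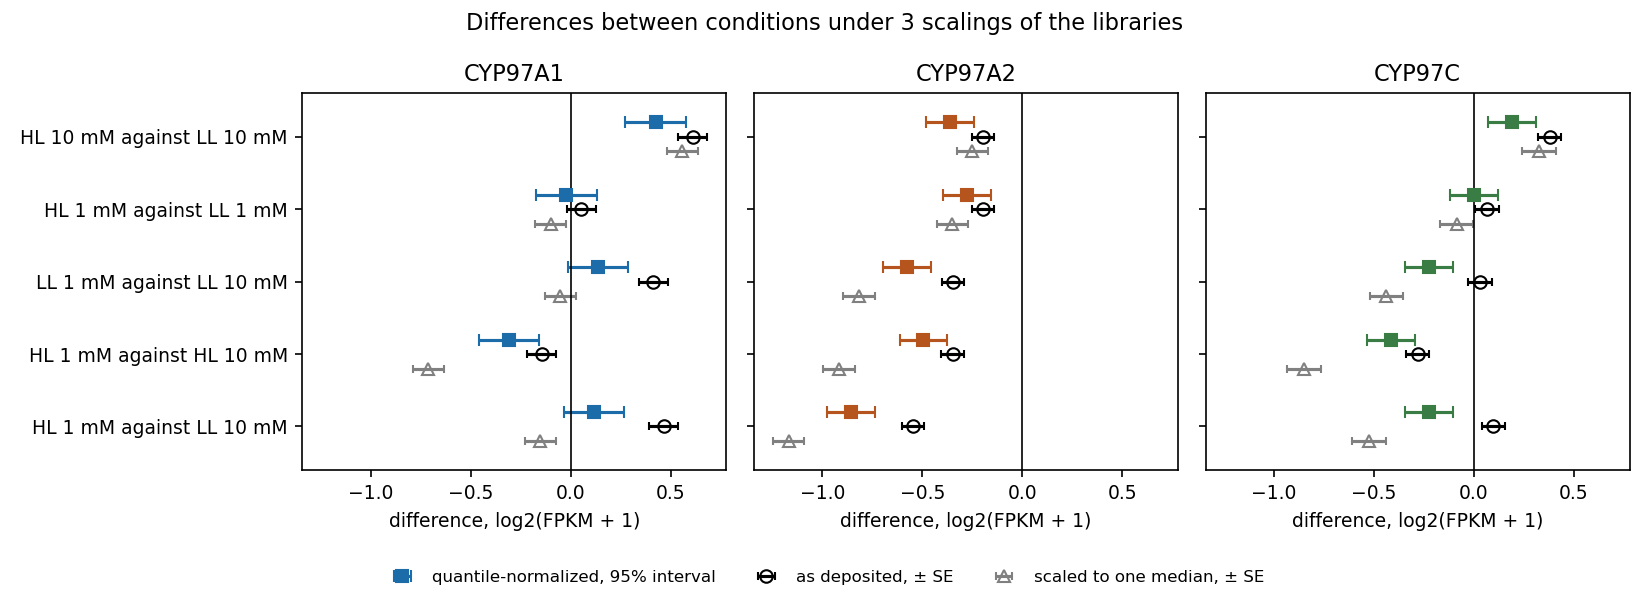
Log2 differences (horizontal axis) of CYP97A1, CYP97A2 and CYP97C in 5 comparisons between conditions (vertical axis), each after quantile normalization, as deposited and after scaling to one median. Bars are 95% confidence intervals from limma for the normalized values (squares) and ± SE for the deposited (circles) and median-scaled (triangles) values. CYP97A2 is below 0 in all 5 comparisons under all 3 scalings, whereas CYP97A1 and CYP97C change side with the scaling in comparisons of 1 mM with LL 10 mM.

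In the model with both factors the genes fell into different classes. The nitrate effect (1 mM minus 10 mM) was -0.54 ± 0.04 SE for CYP97A2 (limma adjusted p = 6.04e-07), -0.32 ± 0.04 for CYP97C (adjusted p = 3.02e-05) and -0.09 ± 0.05 for CYP97A1 (adjusted p = 0.143), against 36.7% of all genes lower and 27.8% higher. The light effect (HL minus LL) was -0.32 ± 0.04 for CYP97A2 (adjusted p = 0.000367), 0.20 ± 0.05 for CYP97A1 (adjusted p = 0.0243) and 0.09 ± 0.04 for CYP97C (adjusted p = 0.164), against 5.31% of all genes higher and 4.45% lower. CYP97A2 thus belonged to the 454 genes (3.04%) that were lower with both low nitrate and high light. CYP97A1 belonged to the 194 genes (1.30%) that were higher in high light with no call for nitrate, and CYP97C to the 4815 genes (32.3%) that were lower at low nitrate with no call for light. For CYP97A1 both effects are means over unlike differences. Its nitrate difference was 0.14 in low light, not called, and -0.31 in high light, called. Its light difference was 0.42 at 10 mM nitrate and -0.02 at 1 mM. The nitrate effects of CYP97A2 and CYP97C were negative under each scaling, as deposited -0.35 and -0.13 (limma adjusted p = 1.07e-05 and 0.0173). That of CYP97A1 was 0.13 as deposited (limma adjusted p = 0.0357) and -0.38 after median scaling (limma adjusted p = 8.25e-05), so its direction depended on the scale, and without LL 1 mM replicate 1 it passed the test at -0.12 (limma adjusted p = 0.045). CYP97C passed the test of light as deposited, at 0.22 (limma adjusted p = 0.00478), with unmoderated variances (limma adjusted p = 0.0285) and not after median scaling. The CYP97A1 light call was lost in 5 of 12 fits that left out a library, those without replicate 2 or 3 of LL 10 mM, 2 of HL 10 mM, 2 of LL 1 mM or 1 of HL 1 mM, with values of 0.19 to 0.20 there (limma adjusted p = 0.055 to 0.0635).

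The light effect on CYP97A1 differed between the nitrate levels. Its interaction, the light effect at 1 mM minus that at 10 mM, was -0.45 ± 0.10 SE (95% CI -0.66 to -0.23, limma adjusted p = 0.0306), and 7.43% of the genes had a lower value. It was -0.56 as deposited and -0.66 after median scaling, and passed the test under both. The interaction was 0.08 for CYP97A2 (95% CI -0.09 to 0.25, adjusted p = 0.557) and -0.19 for CYP97C (95% CI -0.36 to -0.02, adjusted p = 0.169, passing as deposited at -0.31 with adjusted p = 0.0435). Whether the interaction differed between the genes was not tested. Of all genes, 2.37% had a lower and 3.10% a higher interaction. The CYP97A1 call held without replicate 1 of LL 10 mM, 3 of HL 10 mM, 3 of LL 1 mM or 1 of HL 1 mM and was lost without any of the other 8 libraries, where the value was -0.47 to -0.39 (limma adjusted p = 0.0572 to 0.07).

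A ratio of 2 genes within a library does not change when the library is scaled by one factor, so the members were also compared with each other in this way, on deposited FPKM. Quantile normalization, which is no single factor, moved the 6 differences little (that of CYP97A1 to CYP97A2 for nitrate from 0.49 to 0.46) and changed none of the calls. CYP97A1 was at 0.453 ± 0.0390 of CYP97A2 at LL 10 mM, 0.798 ± 0.0176 at HL 10 mM, 0.772 ± 0.0321 at LL 1 mM and 0.921 ± 0.0250 at HL 1 mM (SD, n = 3). Its highest single value was 0.95, in HL 1 mM replicate 1, so CYP97A1 was below CYP97A2 in each of the 12 libraries. The log2 ratio was higher at 1 mM than at 10 mM by 0.49 (0.77 in low light and 0.21 in high light) and higher in high light than in low light by 0.54 (0.82 at 10 mM and 0.26 at 1 mM). Both had p = 0.005 in an exact two-sided permutation test within levels of the other factor, the smallest p that test can give, and 0.0075 after Benjamini-Hochberg adjustment over the 6 ratio tests.

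CYP97A2 and CYP97C changed rank between conditions. The ratio of CYP97A2 to CYP97C was 1.33 ± 0.0473 at LL 10 mM, 0.888 ± 0.0420 at HL 10 mM, 1.02 ± 0.0274 at LL 1 mM and 0.847 ± 0.0229 at HL 1 mM (SD, n = 3). The 3 control libraries had more CYP97A2 than CYP97C per length (1.30, 1.38 and 1.30), each high-light library had less, and the LL 1 mM libraries lay on both sides of 1 (1.02, 0.991 and 1.05). In high light the log2 ratio differed by -0.42 (-0.58 at 10 mM and -0.27 at 1 mM, exact permutation p = 0.005, adjusted p = 0.0075). For low nitrate it was -0.23 (-0.38 in low light and -0.07 in high light, exact permutation p = 0.015, adjusted p = 0.018).

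CYP97A1 stayed below CYP97C in each library. The ratio was 0.602 ± 0.0421 at LL 10 mM, 0.709 ± 0.0247 at HL 10 mM, 0.787 ± 0.0340 at LL 1 mM and 0.780 ± 0.0310 at HL 1 mM (SD, n = 3). On the log2 scale it was higher at 1 mM by 0.26 (exact permutation p = 0.005, adjusted p = 0.0075). For light it was 0.11 (exact permutation p = 0.095, adjusted p = 0.095), made up of 0.24 at 10 mM, where the libraries of both lights did not overlap, and -0.01 at 1 mM, where they did. Without LL 1 mM replicate 1 or HL 1 mM replicate 2 this light difference had an exact permutation p under 0.05, and over all 12 omissions it ranged from 0.09 to 0.14.

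**Figure D3:**
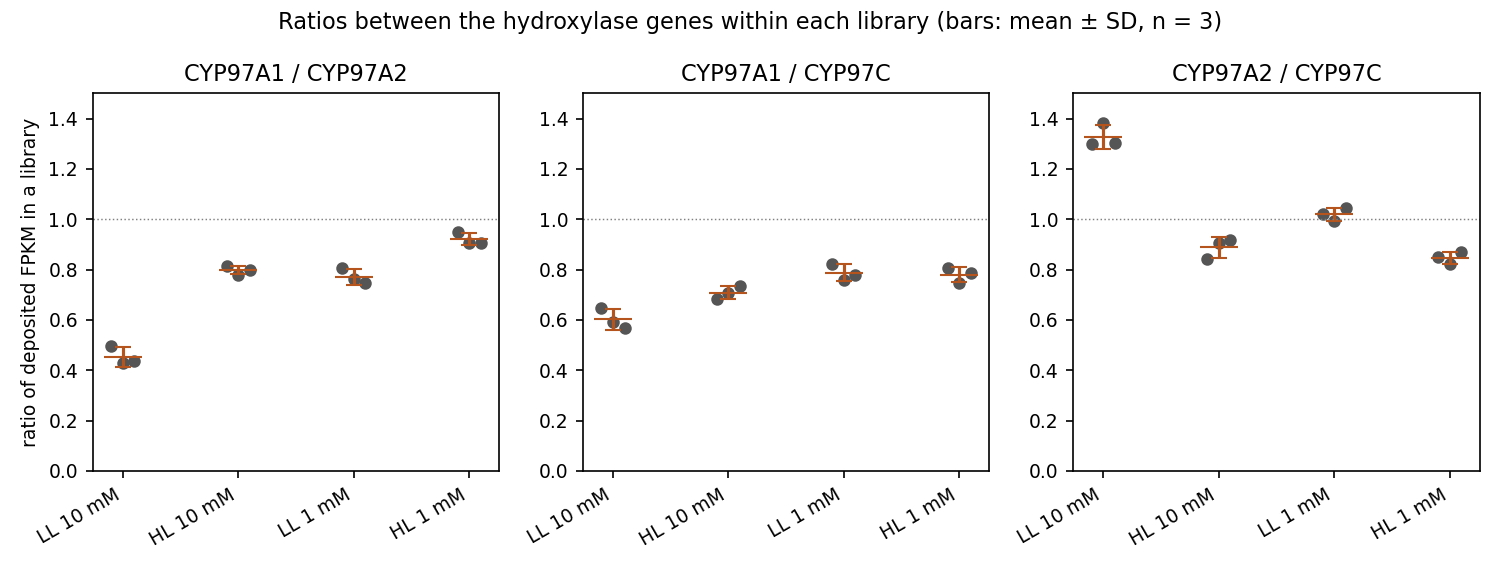
Within-library ratios of deposited FPKM (vertical axis, no unit) for the 3 pairs of hydroxylase genes in the 4 conditions (horizontal axis), with points for libraries and bars for the mean ± SD of 3. The dotted line marks equal FPKM. CYP97A2 over CYP97C is above 1 in LL 10 mM (1.33) and below it in both high-light conditions (0.888 and 0.847).

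The summed deposited FPKM of the 3 genes was highest in HL 10 mM. It was 244 ± 1.37 at LL 10 mM, 282 ± 0.506 at HL 10 mM, 239 ± 10.3 at LL 1 mM and 234 ± 3.57 at HL 1 mM (SD, n = 3). This sum, unlike the shares within it, moves with any common scaling of a library. Within it, CYP97A2 held 45.3% at LL 10 mM, 34.2% at HL 10 mM, 36.3% at LL 1 mM and 32.2% at HL 1 mM. CYP97A1 held 20.5%, 27.3%, 28.0% and 29.7% in the same order, and CYP97C 34.1%, 38.5%, 35.6% and 38.1%. The control was the condition with the largest share of CYP97A2. The sum of both CYP97A genes over CYP97C was 1.93 ± 0.0555 at LL 10 mM, 1.60 ± 0.0651 at HL 10 mM, 1.81 ± 0.0507 at LL 1 mM and 1.63 ± 0.0502 at HL 1 mM. CYP97A1 and CYP97A2 belong to one enzyme family, and how reads from any stretch they have in common were assigned was not tested.

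LCYe, the enzyme that commits lycopene to the lutein branch, had the same order of conditions as CYP97A2, over a wider range. Its deposited FPKM was 117 ± 5.48 at LL 10 mM, 85.4 ± 4.15 at HL 10 mM, 66.2 ± 3.03 at LL 1 mM and 54.1 ± 4.59 at HL 1 mM (SD, n = 3). Its nitrate effect was -0.93 (limma adjusted p = 2.29e-07) and its light effect -0.49 (adjusted p = 0.000374). Beside CYP97C, it went from 1.40 ± 0.0702 of that gene's FPKM in LL 10 mM to 0.607 ± 0.0547 in HL 1 mM, and beside CYP97A2 from 1.05 ± 0.0342 to 0.717. CHYb had a deposited FPKM of 61.1 ± 12.1 at LL 10 mM, 60.9 ± 7.10 at HL 10 mM, 85.1 ± 7.96 at LL 1 mM and 89.7 ± 17.8 at HL 1 mM. Its nitrate effect was 0.30 (limma adjusted p = 0.0338) and its light effect, at -0.08, did not pass. The nitrate call depended on the scale, with 0.51 as deposited (limma adjusted p = 0.00183) and -0.0053 after median scaling (limma adjusted p = 0.968). Relative to the summed FPKM of the 3 P450 genes, CHYb was at 0.250 at LL 10 mM, 0.216 at HL 10 mM, 0.356 at LL 1 mM and 0.383 at HL 1 mM.

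The study lists 22 other carotenoid genes, from phytoene synthase to the ketolases and epoxidases. For nitrate, 13 of them were lower, 6 higher and 3 not called, beside 36.7% lower and 27.8% higher of all genes. Their median was -0.27 beside -0.06 over all genes. For light, 8 were higher, 3 lower and 11 not called, beside 5.31% higher and 4.45% lower of all genes. Their median was 0.12 beside 0.01. The opposite light effects of CYP97A1 and CYP97A2 therefore had counterparts on both sides of this list. As deposited, 8 of the 22 were higher and 10 lower at low nitrate, beside 9185 and 1486 of all genes, so the split moved with the scale. In LL 1 mM against LL 10 mM, 3 were higher and 12 lower (8 and 7 as deposited), beside 21.3% and 25.2% of all genes. In HL 10 mM against LL 10 mM 5 were higher and 4 lower, beside 5.81% and 5.67%. As deposited, 10 were higher and 4 lower, beside 2127 and 773 of all genes. The interaction passed in 3 of the 22, each with a positive value, beside 3.10% higher and 2.37% lower of all genes. That of CYP97A1 was negative. As deposited and after median scaling, 3 of the 22 had a higher and 2 a lower interaction, so a negative value was then not particular to CYP97A1. Of all genes, 643 were then higher and 526 lower as deposited, and 597 and 690 after median scaling. The 3 called after quantile normalization were named after their values were seen. They were ZEP (zeaxanthin epoxidase, Cz07g30060) at 0.54 and the NSY genes Cz15g04070 at 0.74 and Cz01g02290 at 1.05 (limma adjusted p = 0.0267, 0.012 and 0.0153).

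**Figure D4:**
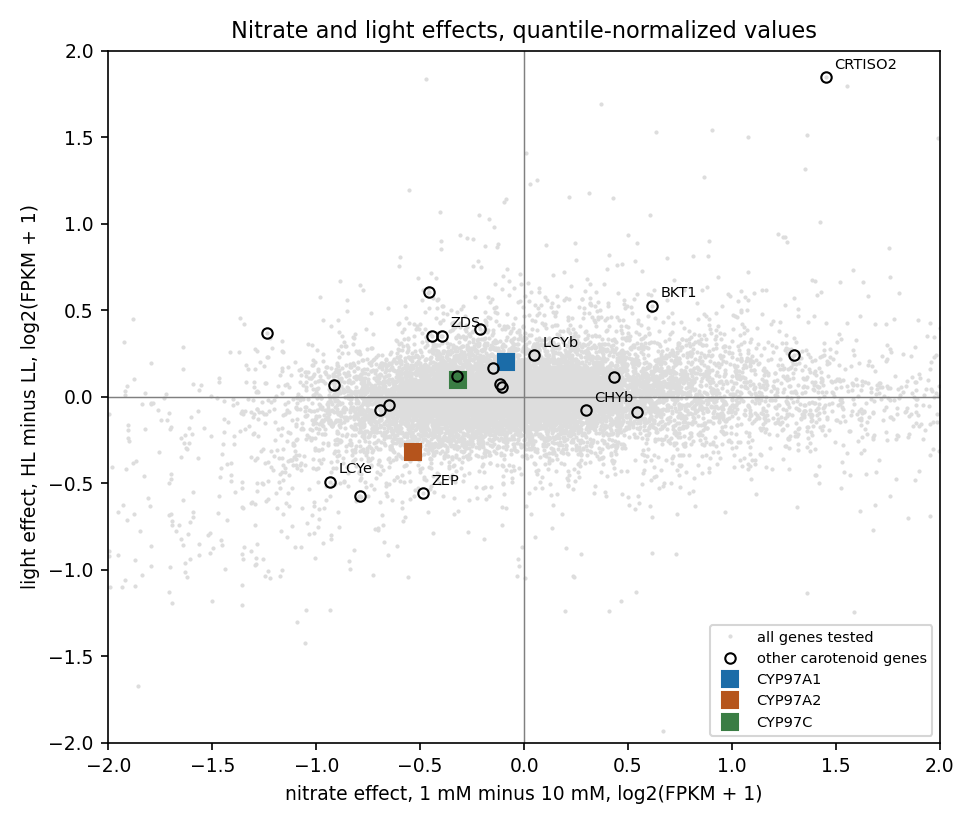
Nitrate effect (1 mM minus 10 mM, log2) against light effect (HL minus LL, log2) for every gene tested (grey), with the 22 other carotenoid genes as open circles and the 3 hydroxylase genes as squares. Axes are cut at ±2, which leaves out 207 genes. CYP97A2 lies at -0.54 and -0.32, CYP97C at -0.32 and 0.09, and CYP97A1 at -0.09 and 0.20.

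The genes with the most similar pattern differed between the 3 members. Likeness was Pearson's r of normalized log2 values over the 12 libraries, which share conditions and scaling, among 13052 genes with a mean FPKM of at least 1, and is given as a description. CYP97A2 followed Cz05g02010 most closely (r = 1.00 after rounding), a gene whose mean FPKM went from 803 at LL 10 mM over 358 at HL 10 mM and 201.1 at LL 1 mM to 108 at HL 1 mM. Of the carotenoid list, LCYe (r = 0.99) and ZEP (r = 0.90, 0.76 without normalization) were nearest to it, and 7 of the 13052 genes had a higher r than LCYe. CYP97C was nearest to Cz01g05270 (r = 0.99). In the list it was nearest to CRTISO (Cz16g01210), a carotenoid isomerase, and PDS (Cz07g17250), a phytoene desaturase, both with r = 0.92. The other CRTISO and PDS genes of the list had a lower r. The r of Cz16g01210 and Cz07g17250 fell to 0.69 and 0.45 on the scale without normalization. CYP97A1 had the fewest genes with a high r. Its nearest gene was Cz06g14070 (r = 0.96), its nearest list genes were ZDS (ζ-carotene desaturase, r = 0.75) and CRUP (r = 0.67), and 11 of the genes compared exceeded r = 0.9, against 610 for CYP97A2 and 950 for CYP97C. Whether its larger SD between libraries (0.0688, against 0.0363 for CYP97A2 and 0.0367 for CYP97C) lowered this count was not tested. Among the members themselves, r was -0.13 between CYP97A1 and CYP97A2, 0.60 between CYP97A1 and CYP97C, and 0.62 between CYP97A2 and CYP97C.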

How the data were processed

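Stranded mRNA libraries, 12 in all and 3 in each of 4 conditions, were sequenced, and the authors used HISAT2 for mapping and StringTie for abundance, with genome annotation 5.6 of the species. The deposited table holds 1 value per gene and library, read as FPKM on a linear scale before any quantile normalization. It holds no counts, so depth is unknown.

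Of 15274 genes, 358 at 0 in all libraries were dropped. With R 4.3.3 and limma 3.58.1, log2(FPKM + 1) was quantile-normalized and fitted with the 4 conditions, and with nitrate, light and their interaction, which was dropped for a gene where its p was 0.05 or more. Calls used an adjusted p under 0.05. Ratios were tested by exact permutation within levels of the other factor.

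The genes named are the 3 members, LCYe, CHYb and, for each member, the 2 carotenoid genes and the 1 gene of the table with the highest r. The NSY genes were named after their values were seen. Members and lists were chosen with earlier results of these data known. Alternatives were another pseudocount (0.1), a filter at a mean FPKM of 1, no normalization, median scaling, a trended robust prior, unmoderated variances, the interaction kept for every gene, a replicate block, fits with 6 libraries and each library left out. Same-numbered libraries deviated together in each pair (r over 0.1) for HL 1 mM with LL 1 mM and HL 10 mM with LL 1 mM, and not in each pair for the other 4 combinations. The labels do not say what the numbers mark. The steps were tested on simulated data. The genome sequence, products of other gene IDs and pigment contents were not used here.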

Additional observations from a re-analysis of the deposited data

Results flagged for a closer look

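The effect of light on CYP97A1 differed between nitrate levels, the interaction being -0.45 on the log2 scale (limma adjusted p = 0.0306). High light raised the gene by 0.42 at 10 mM nitrate, in 3 of 3 libraries, and at 1 mM the difference was -0.02 with overlapping libraries. The call was lost in 8 of 12 fits that left out a library, as given above.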

How the results depend on the processing

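CYP97A2 kept its calls for nitrate, light, LL 1 mM and HL 1 mM against LL 10 mM, and HL 1 mM against HL 10 mM under each alternative run. A filter at a mean FPKM of 1 took CYP97C in HL 10 mM against LL 10 mM, at 0.19, past the threshold (adjusted p = 0.0504, limma).

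Without normalization, 2900 genes were called in HL 10 mM against LL 10 mM (1712 with it) and 2500 for light (1456). CYP97A1 was then at 0.41 in LL 1 mM and 0.47 in HL 1 mM against LL 10 mM, -0.14 in HL 1 mM against HL 10 mM, 0.053 in HL 1 mM against LL 1 mM and 0.13 for nitrate. CYP97C was at 0.031 and 0.10 in LL 1 mM and HL 1 mM against LL 10 mM, -0.31 for the interaction and 0.22 for light, and CYP97A2 at -0.20 in HL 1 mM against LL 1 mM and -0.0015 for the interaction. Median scaling gave CYP97A2 -0.25 in HL 10 mM against LL 10 mM and -0.10 for the interaction, CYP97A1 -0.054 in LL 1 mM and -0.15 in HL 1 mM against LL 10 mM and -0.38 for nitrate, CYP97C -0.087 in HL 1 mM against LL 1 mM, and 428 genes in HL 1 mM against LL 1 mM (781) and 1287 for the interaction (817).

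Over all conditions the evidence that replicate numbers pair the libraries was mixed. Of 18 pairs of same-numbered libraries, 13 deviated together with r over 0.1 (range -0.06 to 0.47), and 5 of 12 libraries matched their own number best in every other condition. With the replicate block, 1308 genes were called in HL 1 mM against LL 1 mM and 1582 for the interaction, and no call of the 3 genes changed. Unmoderated variances gave 474 genes for the interaction and CYP97C a light effect of 0.095 (adjusted p = 0.0285, limma). With 6 libraries, 391 genes were called in HL 1 mM against LL 1 mM, CYP97C was at 0.20 in HL 10 mM against LL 10 mM and CYP97A2 at -0.27 in HL 1 mM against LL 1 mM. The causes of these changes were not tested.

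Leaving out each library gave 1081 to 1793 genes in HL 10 mM against LL 10 mM (lowest without HL 10 mM replicate 1), 310 to 1336 in HL 1 mM against LL 1 mM (without LL 1 mM replicate 1 and replicate 3) and 202 to 1421 for the interaction (without LL 1 mM replicate 2 and replicate 3). CYP97C ranged from 0.17 to 0.21 in HL 10 mM against LL 10 mM and from -0.028 to 0.019 in HL 1 mM against LL 1 mM, where CYP97A1 ranged from -0.061 to 0.039 and CYP97A2 from -0.29 to -0.26. CYP97A1 ranged from -0.49 to -0.39 for the interaction, -0.12 to -0.063 for nitrate and 0.18 to 0.23 for light, and the light difference of the CYP97A1 to CYP97C ratio from 0.092 to 0.14 (exact permutation p = 0.035 to 0.16).

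With 3 libraries a condition and no counts, counting error could not be separated from the spread between libraries.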
